A study of Homo sapiens with 6 samples.

Results

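The collagen-modifying enzymes described here are 10 genes of 3 families: the prolyl 4-hydroxylase alpha subunits P4HA1, P4HA2 and P4HA3, the lysyl hydroxylases PLOD1, PLOD2 and PLOD3, and the lysyl oxidases LOX, LOXL1, LOXL2 and LOXL3. They were taken by gene symbol from the 18404 genes that had a probe set naming them alone, and each of the 10 had exactly 1 such probe set. Expression was measured on whole-transcript arrays in cultures of H69 and of H69M, labelled as human small cell lung cancer cell lines, with 3 arrays of each line and no treatment named. How H69M was obtained is not given in the labels. Nor do they say that the 3 replicates came from separate cultures, so the p-values rest on array-to-array spread that may be technical only. All levels are log2 values as deposited, and all differences are H69M minus H69 on that scale.

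Collagen chains are modified inside the endoplasmic reticulum before they fold, and again outside the cell. Prolyl 4-hydroxylase joins an alpha subunit, which carries the active site, to protein disulfide isomerase (P4HB) and hydroxylates prolines, which stabilises the collagen helix. Lysyl hydroxylases modify lysines that later carry sugars or enter cross-links; both enzyme groups need oxygen, iron, ascorbate and 2-oxoglutarate. Lysyl oxidases are secreted or cell-surface copper enzymes that turn lysines and hydroxylysines of collagen and elastin into aldehydes, from which cross-links form. In tumours LOX, LOXL2 and PLOD2 are known for their part in matrix stiffening and spread, and LOX, PLOD2, P4HA1 and P4HA2 are known hypoxia-inducible genes.

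All 10 genes were higher in H69M. By limma, with a Benjamini-Hochberg adjusted p of 0.05 as the threshold, 10 of 10 rose and 0 fell, where 21.0% of all genes rose and 23.2% fell. The 10 genes were chosen with earlier results of these data known. The counts in this paragraph thus describe them and are no test of the group against all genes. Rises of at least 2-fold were measured in 9 of the 10, against 5.56% of all genes. Of these 9, P4HA3 was nearest to the limit. Its rise was under 2-fold in some alternatives, at 0.97 (log2) after median centring of the arrays and 0.92 without H69M replicate 2. The log2 fold changes ran from 0.37 for LOXL3 to 4.29 for LOXL2 with a median of 1.54, beside a median of -0.041 over all genes. For every member each H69M array lay above each H69 array; of all genes 25.8% did so, and 30.0% had each H69M array below. After median centring of the arrays, the 10 still rose, while the counts over all genes moved from 3866 higher and 4274 lower to 3110 higher and 6827 lower.

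**Figure D1:**
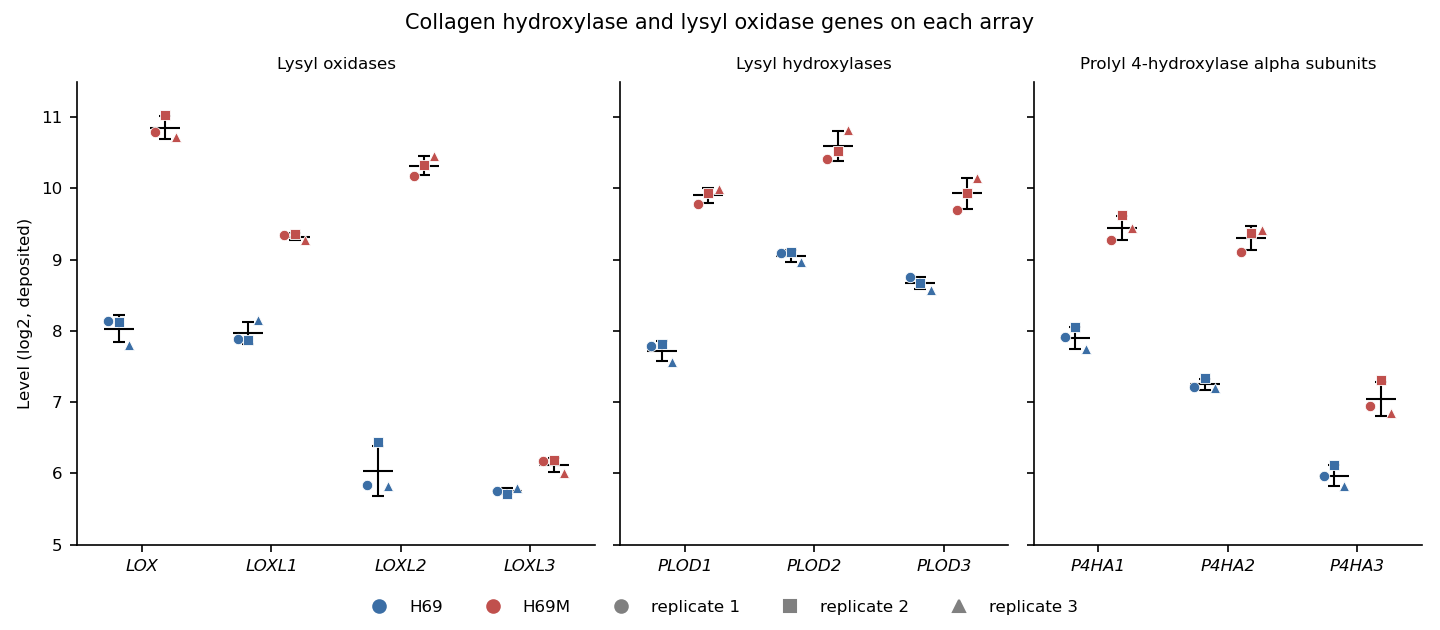
Level of each gene (log2, as deposited) on the 3 H69 arrays (blue) and the 3 H69M arrays (red), with marker shape for the replicate number; bars are the mean and the SD (n = 3). The groups do not overlap for any gene, and the gap is widest for LOXL2 (means of 6.03 and 10.32) and narrowest for LOXL3 (5.75 and 6.12).

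Since the 10 genes moved the same way, the sequence before their start sites was searched for 5-base cores of the hypoxia response element, ACGTG and GCGTG, on both strands. RefSeq promoters (GRCh38.p14) were found for 8 of the 10 genes, not for LOXL2 and P4HA3. In the 250 bases before the start, 5 of these 8 genes held a core at 1 or more listed starts (LOX, LOXL3, P4HA1, PLOD1 and PLOD2). Counted by window, 7 of their 11 windows did (63.6%), beside 49.3% of all protein-coding promoter windows. The core ACGTG alone was found for LOX, P4HA1 and PLOD2, which is 3 of the 8 genes. By window this was 5 of the 11, beside 20.2% of protein-coding windows. The member windows held 54.8% to 72.4% G and C, and the shares over protein-coding windows were not matched for this. The windows at the inner starts of LOX overlap and hold the same cores. Shown here are the 3 promoters with ACGTG (for LOX, at the outermost of its 3 listed starts) and that of P4HA2, a paralogue whose window holds neither core; capitals mark the cores on either strand, and each line runs 5′ to 3′ towards the start.
LOX, chr5:122078260-122078509, minus strand: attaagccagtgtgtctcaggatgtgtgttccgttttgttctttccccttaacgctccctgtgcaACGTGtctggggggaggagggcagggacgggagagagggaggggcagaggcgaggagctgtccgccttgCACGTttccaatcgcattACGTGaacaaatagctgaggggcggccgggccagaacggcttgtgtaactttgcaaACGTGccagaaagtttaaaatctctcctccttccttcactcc
PLOD2, chr3:146161185-146161434, minus strand: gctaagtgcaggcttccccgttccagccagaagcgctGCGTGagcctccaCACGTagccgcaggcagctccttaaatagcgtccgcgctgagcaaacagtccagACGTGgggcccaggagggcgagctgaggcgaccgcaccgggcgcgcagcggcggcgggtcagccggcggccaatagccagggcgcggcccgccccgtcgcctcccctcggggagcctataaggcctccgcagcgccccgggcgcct
P4HA1, chr10:73096867-73097116, minus strand: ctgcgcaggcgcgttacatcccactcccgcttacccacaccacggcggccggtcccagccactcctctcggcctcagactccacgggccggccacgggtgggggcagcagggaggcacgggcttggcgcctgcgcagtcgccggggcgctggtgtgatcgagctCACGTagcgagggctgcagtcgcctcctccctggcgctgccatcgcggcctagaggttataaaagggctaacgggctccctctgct
P4HA2, chr5:132227092-132227341, minus strand: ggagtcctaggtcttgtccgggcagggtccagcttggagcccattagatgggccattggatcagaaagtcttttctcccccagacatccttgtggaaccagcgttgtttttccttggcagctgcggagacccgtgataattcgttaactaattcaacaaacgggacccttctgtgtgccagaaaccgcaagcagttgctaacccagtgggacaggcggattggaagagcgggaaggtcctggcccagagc
The LOX window has 4 cores, which begin 185, 116, 98 and 42 bases before the start. PLOD2 has 3 cores, beginning 213, 200 and 146 bases before it, and P4HA1 has 1, at 86 bases. A match says only that these letters are present. Of the other motifs searched, the AP-1 motif TGANTCA was in none of the 11 member windows (5.4% of protein-coding windows hold it). The E-box CACCTG was in 3 of the 11, of LOX and LOXL3 (17.0%), and the TEAD motif CATTCC in 1, of LOXL3 (10.5%). All were searched on both strands.

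Among the prolyl 4-hydroxylase alpha subunits, P4HA2 had the largest rise. P4HA2 read 7.21, 7.34 and 7.20 on the H69 arrays and 9.11, 9.38 and 9.42 on the H69M arrays. The lowest H69M array was thus 1.77 above the highest H69 array, and the log2 fold change was 2.05 ± 0.093 (SE, n = 3 per line), or 4.15-fold (limma, Benjamini-Hochberg adjusted p = 1.65e-06). P4HA1, the broadly expressed alpha subunit, stood at 7.92, 8.05 and 7.74 in H69 and at 9.27, 9.62 and 9.44 in H69M. It rose by 1.54 ± 0.11 (log2, SE), or 2.90-fold (limma adjusted p = 1.81e-05). P4HA3, the third alpha subunit, was dim in H69, with 5.97, 6.12 and 5.82, and read 6.94, 7.31 and 6.85 in H69M. Its arrays did not overlap either, and its rise was 1.06 ± 0.13 (log2, SE), or 2.09-fold (limma adjusted p = 0.000324). The 95% interval of this change was 0.76 to 1.36. The partner subunit P4HB, which also serves as a general disulfide isomerase, rose by 0.46 ± 0.069 (log2, SE), from 11.86 to 12.32.

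The lysyl hydroxylases were led by PLOD1, which modifies lysines in the helical part of collagen. PLOD1 measured 7.79, 7.81 and 7.56 in H69 and 9.78, 9.94 and 9.99 in H69M. The arrays of each line lay close together, and the log2 fold change of 2.18 ± 0.090 (SE) made it 4.55-fold higher (limma, Benjamini-Hochberg adjusted p = 1.08e-06). PLOD2, which modifies the telopeptide lysines used for stable cross-links, had 9.09, 9.11 and 8.96 in H69 and 10.41, 10.52 and 10.82 in H69M. It rose by 1.53 ± 0.11 (log2, SE), or 2.90-fold (limma adjusted p = 1.59e-05), and its promoter is the one above with 3 cores. PLOD3, which also has glycosyltransferase activity, read 8.75, 8.67 and 8.58 in H69 and 9.70, 9.94 and 10.15 in H69M. The rise of PLOD3 was 1.26 ± 0.11 (log2, SE), or 2.40-fold (limma adjusted p = 5.8e-05). In all 3 genes H69 replicate 3 was the lowest H69 array and H69M replicate 3 the highest H69M array.

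The lysyl oxidases showed both the largest and the smallest rise of the 10 genes. LOXL2, a scavenger-receptor-domain lysyl oxidase that cross-links collagen IV, read 5.83, 6.44 and 5.82 in H69 and 10.18, 10.33 and 10.45 in H69M. H69 replicate 2 was the highest H69 array, yet the gap to the lowest H69M array was 3.74. The log2 fold change of LOXL2 was 4.29 ± 0.16 (SE, 95% interval 3.91 to 4.67), which is 19.5-fold (limma, Benjamini-Hochberg adjusted p = 7.79e-07) and ranked 66 among the 18404 genes. The H69 level of LOXL2 lay below the median level of all genes (7.16) and has no detection call, so this fold is uncertain. LOX, the founding member, which acts on fibrillar collagen and elastin, went from 8.14, 8.13 and 7.80 to 10.79, 11.03 and 10.72. It rose by 2.82 ± 0.12 (log2, SE), or 7.07-fold (limma adjusted p = 1.1e-06). LOXL1, known for its part in elastic fibres, stood at 7.88, 7.87 and 8.15 in H69 and 9.34, 9.36 and 9.27 in H69M. Its log2 fold change was 1.36 ± 0.087 (SE), or 2.56-fold (limma adjusted p = 1.02e-05). LOXL3, also of the scavenger-receptor group, was dim in both lines, at 5.75, 5.71 and 5.79 against 6.17, 6.19 and 6.01. The lowest H69M value lay only 0.22 above the highest H69 value, and the rise of 0.37 ± 0.067 (log2, SE), or 1.29-fold, had a limma adjusted p = 0.00256. LOXL4, the remaining lysyl oxidase gene and not counted among the 10, had 6.52, 6.49 and 6.50 in H69 and 7.27, 7.19 and 7.50 in H69M, a rise of 0.82 ± 0.084 (log2, SE; limma adjusted p = 0.000132).

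Whether genes of a family changed by different amounts was asked from the difference between 2 members within each array, compared between the lines over all 12 pairs within families. This difference separated the H69 from the H69M arrays without overlap in 12 of 12 pairs. Each pair had a two-sided exact permutation p of 0.1, also 0.1 after Benjamini-Hochberg adjustment over the 12 pairs, and 0.1 is the smallest value that 3 arrays against 3 allow, so no pair could pass 0.05. LOXL2 rose by 1.47 ± 0.22 (log2, SE) more than LOX and by 3.92 ± 0.25 more than LOXL3. PLOD1 exceeded PLOD2 by 0.65 ± 0.085 and PLOD3 by 0.92 ± 0.085. The smallest difference was that of PLOD2 over PLOD3, 0.27 ± 0.047. P4HA2 exceeded P4HA1 by 0.52 ± 0.085 and P4HA3 by 0.99 ± 0.16. LOXL3 and P4HA3 in both lines, and LOXL2 in H69, lay below the median level of all genes (7.16). Folds are least certain there, so differences that involve these genes may in part reflect signal range rather than unequal change. This was not tested.

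**Figure D2:**
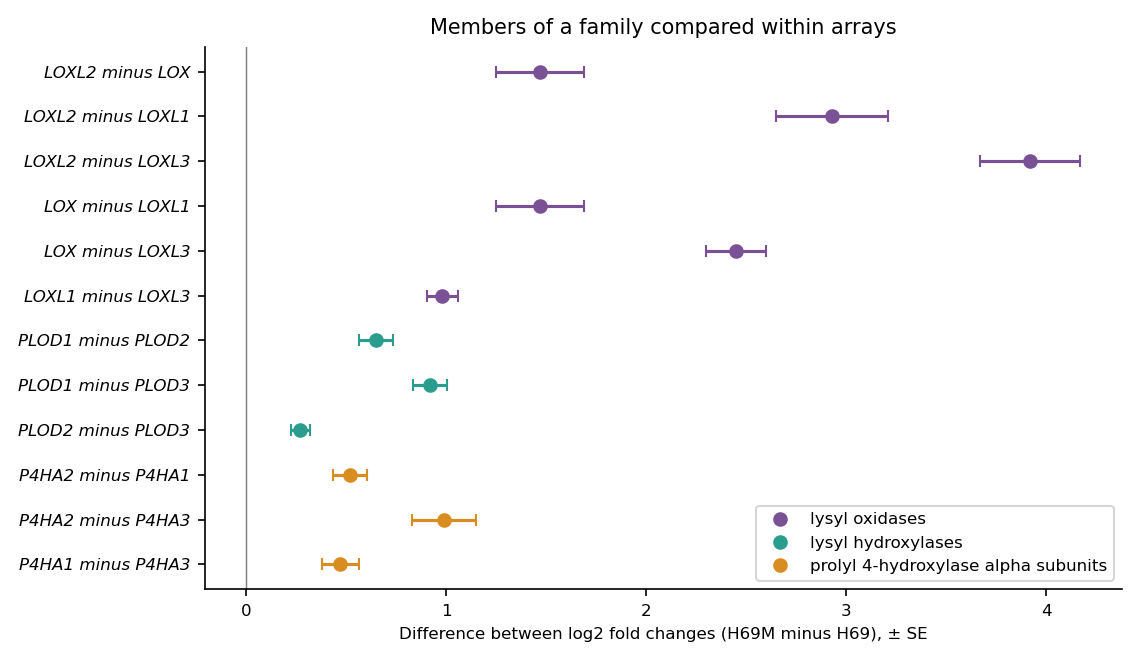
Difference between the log2 fold changes (H69M minus H69) of 2 genes of a family, for all 12 pairs; bars are the SE over 3 arrays per line, and the vertical line marks equal change. The differences run from 0.27 (PLOD2 minus PLOD3) to 3.92 (LOXL2 minus LOXL3).

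The other genes that modify, fold or export collagen were mostly higher as well. Of the 21 measured, 18 rose and 1 fell, beside 21.0% and 23.2% of all genes, and their median change was 0.82. P3H2, a prolyl 3-hydroxylase that acts on basement membrane collagen, rose from 4.67 ± 0.26 to 10.26 ± 0.25 (log2, SD, n = 3; limma, Benjamini-Hochberg adjusted p = 2.04e-07). Its H69 level lay below the median level of all genes (7.16) and has no detection call, so no fold is given. SERPINH1, the collagen chaperone HSP47, rose by 3.59 ± 0.096 (log2, SE), from 7.56 to 11.15. CREB3L1, a membrane-bound transcription factor that drives collagen genes, rose by 3.57 ± 0.18, from 5.56 to 9.13. Its H69 level also lay below the median level, so the size of this rise is uncertain. Smaller rises were measured for the prolyl isomerase genes FKBP14 (1.87) and FKBP10 (1.52), the latter a partner of lysyl hydroxylation, and for P3H1 (1.77). In the complex that P3H1 forms with CRTAP and PPIB (members named after their values were seen), CRTAP rose by 0.66, while the rise of PPIB, 0.22 (limma adjusted p = 0.018), did not pass after median centring of the arrays (0.0914), after a further quantile normalization (0.0716), or without H69 replicate 3, H69M replicate 2 or H69M replicate 3 (0.0515 to 0.0619). The gene that fell, TMEM38B, an endoplasmic reticulum cation channel, had a log2 fold change of -0.19 (limma adjusted p = 0.0432). That call was lost with the replicate block (0.0536) and when any 1 of H69 replicates 1 and 2 and the 3 H69M replicates was left out (0.0567 to 0.131). FKBP11 (0.057) and MIA2 (0.037) did not pass.

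**Figure D3:**
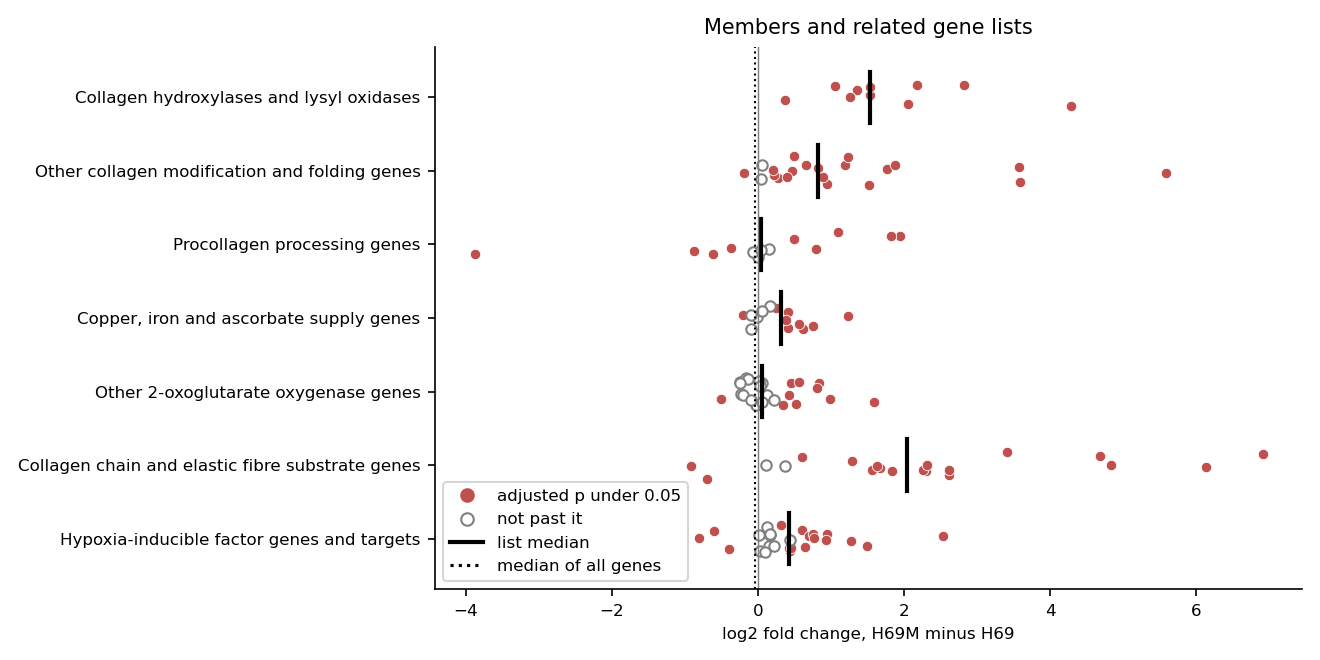
Log2 fold change (H69M minus H69) of the 10 collagen hydroxylase and lysyl oxidase genes and of the measured genes of 6 related lists; filled points passed limma's adjusted p of 0.05, thick bars are list medians and the dotted line is the median of all genes (-0.041). The medians are 1.54 for the 10 genes, 2.04 for the collagen chain and elastic fibre list, 0.82 for other collagen modification and folding genes, and 0.041 for procollagen processing genes.

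Collagen chain and other matrix genes, substrates of these enzymes among them, also rose. Of 20 genes of collagen chains, elastic fibres and matrix partners, 16 rose and 2 fell (median 2.04), beside 21.0% and 23.2% of all genes. The list includes FN1, POSTN and FMOD, which are neither collagen chains nor elastic fibre genes. COL1A1 and COL1A2, the chains of type I collagen, rose by 4.83 ± 0.097 and 2.61 ± 0.080 (log2, SE), and COL3A1 by 2.30 ± 0.19. Fibronectin, FN1, which binds LOX and collagen, rose by 6.91, the fibrillin gene FBN1 by 6.13, and FBLN5, which assembles elastin with LOXL1, by 4.68. In H69 the mean levels of FN1 (4.97), FBN1 (4.32), FBLN5 (5.38), COL3A1 (5.94) and COL1A1 (6.88) lay below the median level of all genes (7.16). They have no detection call, so the size of these rises is uncertain. The falling pair, singled out once their values were known, were the cartilage collagen gene COL2A1 (-0.70) and FMOD (-0.91), which encodes a small proteoglycan that binds collagen and LOX. COL4A2 (0.37, limma adjusted p = 0.18) and POSTN (0.11, 0.505) did not pass but did without H69M replicate 3 (0.61, adjusted p = 0.00505, and 0.27, adjusted p = 0.0128).

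Genes of procollagen processing were mixed. Of 13 measured, 5 rose and 4 fell (median 0.041), where 21.0% of all genes rose and 23.2% fell. BMP1, the C-propeptide protease that also activates LOX, rose by 1.10 ± 0.084 (log2, SE), and its enhancer PCOLCE by 1.95 ± 0.13. BMP1 has 2 probe sets that disagree: the brighter one, used here, went from 7.72 to 8.82, and the dimmer one from 5.71 to 5.56. The mean of both gave BMP1 a rise of 0.47 ± 0.056 (log2, SE; limma adjusted p = 0.000278). The convertase genes PCSK5 and FURIN rose by 1.82 and 0.80. ADAMTS2, named after its value was seen, rose by 0.50 (limma adjusted p = 0.00632), while ADAMTS3 did not pass (-0.063). Falls were measured for MEP1B, the beta subunit of meprin, from 9.28 to 5.40 (-3.88 ± 0.15, log2, SE), and for the N-propeptidase gene ADAMTS14 (-0.87). The other 2 genes that fell, PCSK6 (-0.61) and PCOLCE2 (-0.37), were named after their values were seen.

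Of 14 measured genes of copper, iron and ascorbate supply, 8 rose and 1 fell (median 0.32), beside 21.0% and 23.2% of all genes. ATP7A, the pump that loads copper into lysyl oxidases, read 6.13, 6.17 and 6.31 in H69 and 7.38, 7.62 and 7.31 in H69M. It rose by 1.23 ± 0.093 (log2, SE), the largest change of this list (limma, Benjamini-Hochberg adjusted p = 2.41e-05). Its homologue ATP7B rose by 0.75, the copper chaperone gene ATOX1 by 0.62 and SLC31A2, a copper transporter, by 0.41. SLC39A13, a zinc transporter needed for lysyl hydroxylation of collagen, rose by 0.56, and the metal transporter gene SLC39A14 by 0.41. CCS, the copper chaperone of superoxide dismutase, had -0.20 (limma adjusted p = 0.0426, 0.086 with the replicate block). It did not pass when any 1 array other than H69M replicate 3 was left out (0.0569 to 0.129).

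Enzymes that share the 2-oxoglutarate chemistry but do not act on collagen had a median log2 fold change of 0.055. Of 24 such genes 9 rose and 1 fell, beside 21.0% and 23.2% of all genes. The gene that fell was P4HTM, a transmembrane relative of the prolyl hydroxylases (-0.51, named after its value was seen). Rises were measured for BBOX1 of carnitine synthesis (1.59), which was dim in both lines (3.49 and 5.08), the aspartate hydroxylase gene ASPH (0.99), PHYH (0.84) and the histone demethylase gene KDM5B (0.81). EGLN3, an oxygen sensor that marks hypoxia-inducible factors for degradation, rose by 0.45 ± 0.10 (log2, SE). The count of falls moved with the scaling, to 7 after median centring.

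Hypoxia-inducible factor genes and their targets rose in part. Of 26 measured genes, 14 rose and 3 fell (median 0.43), beside 21.0% and 23.2% of all genes. The factor gene EPAS1 read 5.51, 5.61 and 5.35 in H69 and 7.80, 8.02 and 8.23 in H69M, a rise of 2.53 ± 0.12 (log2, SE; limma adjusted p = 1.8e-06). HIF1A rose by 0.65 ± 0.066, from 11.33 to 11.99. The largest rises among targets were those of the glucose transporter gene SLC2A1 (1.49), hexokinase HK2 (1.27) and the peptide hormone gene ADM (0.94). Falls, named after their values were seen, were STC2 (-0.81), MXI1 (-0.60) and DDIT4 (-0.40); the call for DDIT4 was lost without H69 replicate 2 (limma adjusted p = 0.0757), H69M replicate 2 (0.0685) or H69M replicate 3 (0.0584). No change was called for the remaining 9 genes, glycolysis genes among them. These were CA12 (0.44), KDM3A (0.22), ERO1A (0.17), LDHA (0.16), PGK1 (0.15), ANKRD37 (0.12), ALDOA (0.091), PFKFB4 (0.035) and SLC2A3 (0.0092). CA9 was not analysed here.

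The genes next to the members on the chromosomes were mixed. Of the 100 measured protein-coding genes that lie within 5 places of a member in RefSeq order, 29.0% rose and 24.0% fell. Of all genes 21.0% rose and 23.2% fell. In 8 of 10 cases the member had a larger log2 fold change than each of its 10 neighbours. The exceptions were LOXL1, with CD276 above it (1.66), and LOXL3, with 5 neighbours above it, among them HK2 (1.27) and DOK1 (0.93). The other 8 members each had a log2 fold change above that of at least 94.8% of all genes. Most of them would thus exceed 10 genes taken from any place, so this comparison says little about their position. Around LOXL2 and around LOXL3 6 of 10 neighbours rose, the most of any member; those of LOXL2 included SLC25A37 (2.60) and the death receptor genes TNFRSF10B (1.52) and TNFRSF10D (1.55). LOX lies near PPIC, a cyclophilin gene, which rose by 1.99. Around PLOD1 the neighbours spanned only -0.20 to 0.21, and around P4HA3 0 rose and 5 fell. These neighbours were examined after the members' values were known.

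**Figure D4:**
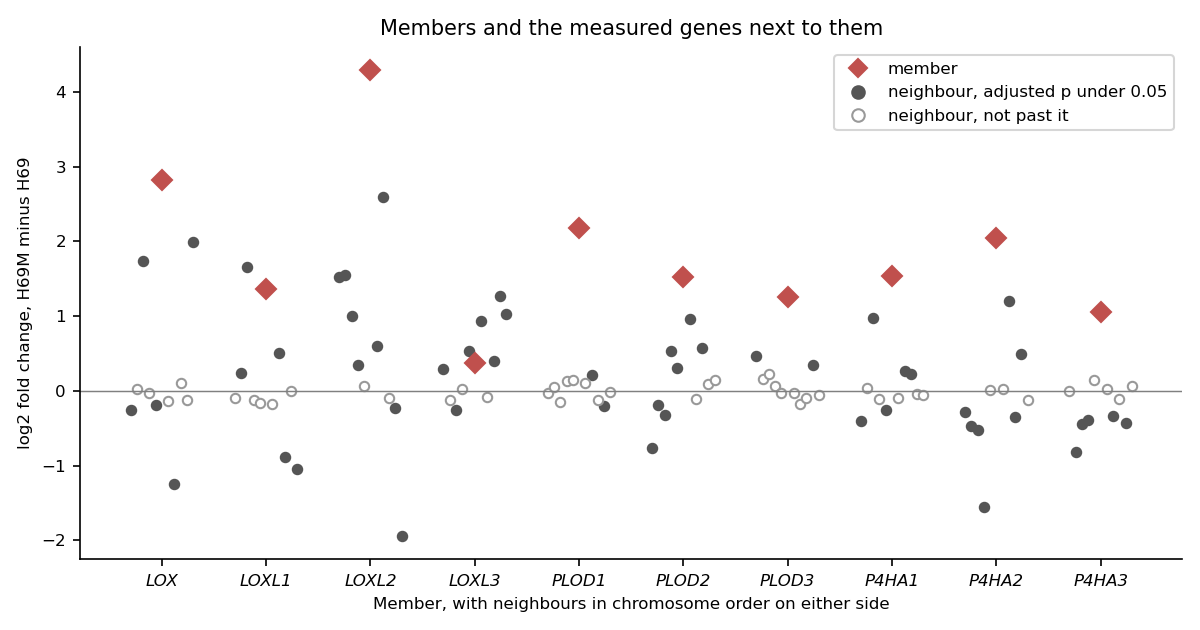
Log2 fold change (H69M minus H69) of each member (red diamonds) and of the 5 measured protein-coding genes on each side in chromosome order (circles; filled where limma's adjusted p was under 0.05). All members except LOXL1 and LOXL3 stand above their 10 neighbours, and neighbours of PLOD1 and PLOD3 lie near 0.

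Genes with profiles most like those of the leading members were found from the root mean square difference of the 6 array values, each gene centred on its mean. Because the lines differ so much, this measure mostly finds genes with a like difference between lines. Nearest to LOXL2 were FAM114A1, IFI16 and STOM (0.16, 0.16 and 0.17 in log2). For PLOD1 they were ITM2C (0.037), PYGO1 (0.059) and MYC (0.070), and for P4HA2 MALL (0.024), MYC (0.041) and SHC1 (0.043).

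Markers of other cell types were measured beside these results. Their counts stand beside 21.0% of all genes that rose and 23.2% that fell. Fibroblasts are known for high levels of these enzymes, and of 12 fibroblast markers 10 rose and 0 fell, and their mean log2 level per array went from 5.36 to 5.38 in H69 to 8.18 to 8.54 in H69M. Besides COL1A1, COL1A2 and COL3A1, which are also substrates, the markers that rose were LUM (6.78), PRRX1 (5.57), FAP (3.92), PDGFRB (3.15), THY1 (2.37), DCN (1.72) and PDGFRA (1.58). The remaining 2, DPT (0.0084) and TCF21 (0.29), did not pass. These values carry no detection call, so no marker can be called absent. The part of these markers in the members' rise was not tested. Of 10 measured neuroendocrine markers of small cell lung cancer 0 rose and 7 fell, and their mean log2 level per array was 9.82 to 9.87 in H69 and 9.0 to 9.31 in H69M. Endothelial (2 rose and 1 fell of 8), leukocyte (1 and 3 of 7) and osteoblast and chondrocyte markers (2 and 3 of 7) had medians of 0.082, -0.20 and -0.033. In the last list, whose genes were named after their values were seen, RUNX2 (3.18) and ALPL (0.94) rose, and SP7 (-0.84), COL2A1 (-0.70) and IBSP (-0.23) fell. The endothelial counts moved with the settings: 3 fell after median centring, and 1 rose without H69 replicate 1 or 2 and 4 without H69M replicate 3. Across genes, which are not independent replicates, Pearson's r was 0.9947 to 0.9976 within a line and 0.9381 to 0.9504 between lines.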

How the data were processed

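Total RNA of 3 H69 and 3 H69M samples was amplified, labelled with biotin and hybridised to arrays, per the labels' protocols. The deposited values are log2 levels of probe sets. RMA and limma are listed, with no version, in the submitters' processing notes; which software ran RMA, and on which genome build, is not given in the sources used here. As usually run, RMA subtracts background, quantile normalizes and summarises probes, and it compresses folds of dim genes.

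Of 32321 probe sets, 19158 had 1 gene symbol in the platform annotation, 1388 had several and 11775 were not listed. For the 637 genes with several probe sets the one with the highest mean was used. H69M was compared with H69 in R 4.3.3 by limma 3.58.1 (functions lmFit and eBayes, two-sided, group only) over 18404 genes, with Benjamini-Hochberg adjustment. Array medians lay between 6.43 and 6.48, the median standard error was 0.075, and the number of arrays limits precision. On simulated data with 18404 genes, limma recovered 73.8% of 80 genes changed by 0.5 in log2 and 96.2% of 80 changed by 1. It recovered 100% of 40 changed by 2, with 13 false calls. The noise was independent and normal, with each gene's H69 SD used for both lines. Far fewer genes were changed than were called in the data. These rates thus check the code and are not error rates of the real comparison. Python 3.11.15 with pandas 2.3.3 and matplotlib 3.10.9 was used for the rest.

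The members and gene lists were chosen with earlier results of these data known. All members were named, with up to 6 called genes of largest change from each of the collagen modification, processing and metal supply lists, up to 4 from each other list, and 12 fixed genes. Gene lists are described by counts and medians, with no set test. Promoters are RefSeq sequences; 8 of 10 members matched. Alternatives are given in the closing section.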

Additional observations from a re-analysis of the deposited data

How the results depend on the processing

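The 10 members kept their direction and their side of the threshold under all 15 alternatives in which they were fitted; LOXL3 and P4HA3 dropped out, leaving 8, when genes below the median level (7.16) were left out. Over the alternatives LOXL2 ranged from 4.18 to 4.49, LOX from 2.71 to 2.88 and LOXL3 from 0.28 to 0.43, with LOXL3 reaching the highest limma adjusted p (0.0129, without H69 replicate 2). P4HA3 ranged from 0.92 to 1.15, so it did not stay at 2-fold or more in all of them. All 12 differences within families kept their sign wherever they were run. With the replicate number as a block 10 members rose, and over all genes the counts were 3617 higher and 4021 lower. Same-numbered arrays correlated at 0.0209, 0.00717 and 0.00991 in their deviations, and H69 replicate 1 correlated better with H69M replicate 3 (0.0264). Such small correlations show no pairing by number, but they cannot exclude it, and the labels name none. Counts in the lists of related genes moved by more than 1.5 times in these cases, whose cause was not tested unless genes were left out. Falls among other collagen modification genes went from 1 to 0 with the replicate block and ranged from 0 to 1 without an array. Falls among metal and ascorbate genes went from 1 to 0 with the replicate block and to 2 with centred arrays, and ranged from 0 to 1 without an array. Falls among other 2-oxoglutarate oxygenases went from 1 to 2 with the replicate block, 7 with centred arrays, 6 with quantile normalization applied again, 5 without the genes below the median level, 4 with eBayes trend and 4 with array weights, and ranged from 1 to 4 without an array. Without those dim genes, 2 procollagen processing genes rose and 1 fell of 4 fitted. Of the collagen chain and elastic fibre list 10 rose and 1 fell of 12. Among marker lists, counts moved by as much without the dim genes (fibroblast rises from 10 to 5 of 5 fitted, endothelial rises from 2 to 0 of 1, osteoblast and chondrocyte rises from 2 to 1 of 4, and leukocyte markers with 0 fitted) and with eBayes trend (neuroendocrine rises from 0 to 1); the endothelial counts under centring and without single arrays are given with the markers. Of the genes named by rule, BMP1 was the one whose change moved by over 1.5-fold, with probe sets averaged. The signal of LOXL3 and P4HA3, and of LOXL2 in H69, lay below the median level, where folds are least certain. So did the lower of the line means for 24 of the 46 members and genes named by rule, P3H2 among them.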

Other observations

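Among the 3 H69 arrays an order of levels was noticed in the members and the hypoxia list after the values were seen. H69 replicate 3 was the lowest H69 array for 8 of 10 members and for 22 of 26 hypoxia-inducible factor genes and targets (84.6%), and for 48.6% of all genes. H69 replicate 2 was the highest for 6 members and for 20 hypoxia list genes (76.9%), against 42.5% of all genes. The full order of replicate 2 above 1 above 3 held for 6 of the 10 members, 18 of the 26 hypoxia list genes (69.2%) and 26.4% of all genes. After median centring of the arrays it held for 4 members, 15 hypoxia list genes (57.7%) and 17.5% of all genes, and replicate 3 was then the lowest for 6 members, 19 hypoxia list genes (73.1%) and 35.1% of all genes. The median difference between replicates 2 and 3 was 0.20 (log2) for the members, 0.21 for the hypoxia list and 0.046 for all genes. Among the H69M arrays no replicate was the lowest for more than 12 of the 26 hypoxia list genes. For the members H69M replicate 1 was the lowest H69M array in 6 of 10 and the highest in 0. Of all genes it was the lowest for 26.3% and the highest for 45.8%. These counts are descriptions of single arrays; genes are not independent, and no test was made.

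The collagen chain and elastic fibre list had another order among the H69M arrays. H69M replicate 2 was the highest for 14 of its 20 genes and H69M replicate 3 the lowest for 14 of 20. Of all genes these arrays were the highest for 23.5% and the lowest for 35.2%. H69M replicate 2 was also the highest for 13 of 21 other collagen modification and folding genes and for 5 of 10 members. H69M replicate 3 was the lowest for 8 of those 21 and 4 of the 10. For the lysyl hydroxylases, LOXL2 and P4HA2, H69M replicate 3 was the highest.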
